A study of Homo sapiens with 12 samples.

Results

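The alternative exons of 6 genes for chromatin enzymes and their partners were described in MCF10A, a line of human breast epithelial cells that do not form tumours, after depletion of the acetyltransferase TIP60. The genes were HDAC7, HDAC2, MTA1, SMARCA4, SIRT6 and JADE2, and their exons were found by matching the middle exon of every listed cassette event to the GENCODE annotation on hg38. This gave 14 events in 6 genes, of 8712 events listed in any library. HDAC7, SMARCA4 and JADE2 had 3 events each, MTA1 and SIRT6 had 2 each, and HDAC2 had 1.

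Histone acetylation is written by acetyltransferases and removed by deacetylases, and both kinds of enzyme act within larger complexes that are brought to particular genes. HDAC2 is a class I deacetylase of the NuRD complex, in which MTA1 is a scaffold subunit. HDAC7 is a class IIa deacetylase that acts mainly as a corepressor bound to transcription factors, and SIRT6 is an NAD-dependent deacetylase of histone H3. JADE2 belongs to a family of scaffold proteins for histone acetyltransferase complexes, and SMARCA4, also called BRG1, is an ATPase of the SWI/SNF remodelling complexes. TIP60, encoded by KAT5, is the acetyltransferase of the NuA4 complex.

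The 12 libraries came from 3 stably expressing lines. One carried the empty vector (MSCV), another wild-type TIP60 made resistant to the siRNA (*WT-TIP60), and the last a catalytically dead, equally resistant form (*KD-TIP60). Each line received a control siRNA or a siRNA against TIP60 and was harvested at 72 h, with 2 replicates per group. All lines still have their own KAT5 gene, and the labels say neither whether a line is a clone or a pool nor whether replicates were separate cultures, so p-values measure only the spread between these samples. Inclusion is the estimated fraction of transcripts with the exon, from 0 to 1, and event reads are all reads fitting either form of an event, given per 1000000 event reads of the library (RPM).

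The libraries held 1277953 to 2280488 event reads. Replicates 1 and 2 formed separate sets. Over the 2695 events tested for inclusion, inclusion correlated at 0.953 to 0.985 within a set and at 0.890 to 0.930 between sets. Values were therefore also compared within each replicate number. KAT5 reads with its alternative exon, which starts at position 65713348 of chromosome 11, lay at a lowest, median and highest of 5.31, 8.99 and 17.2 RPM with control siRNA and at 0, 2.02 and 3.95 RPM with TIP60 siRNA; each of the 6 same-number pairs had less with TIP60 siRNA. The form without that exon reached 1654 to 2291 RPM in replicate 1 of the wild-type TIP60 line and 885 to 988 RPM in that of the catalytically dead line, against 2.52 to 8.38 RPM in that of the empty-vector line. In replicate 2 the same form was at 76.8 to 93.0, 28.2 to 35.1 and 0 to 0.731 RPM in these lines. Summed reads of 5 epithelial markers with an event (CDH1, ESRP1, ITGB4, LAMA3 and TP63, of 12 listed) were 2445 to 4050 RPM with control and 2668 to 4531 RPM with TIP60 siRNA. Those of 3 of 6 mesenchymal markers (FN1, ZEB1 and ZEB2) were 21.9 to 827 and 35.4 to 2490 RPM, and LYZ, the 1 of 5 immune markers with an event, lay at 0 to 21.1 and 0 to 31.4 RPM. Their part in the results was not tested.

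The sequences of 4 exons on which the results turn are shown first. They were read from GENCODE 29 transcripts on hg38 in the sense of the gene, with the alternative exon in capitals and the adjoining 15 bases of each neighbouring exon in lower case.
HDAC7 111-nt exon, chr12:47795906-47796016, minus strand: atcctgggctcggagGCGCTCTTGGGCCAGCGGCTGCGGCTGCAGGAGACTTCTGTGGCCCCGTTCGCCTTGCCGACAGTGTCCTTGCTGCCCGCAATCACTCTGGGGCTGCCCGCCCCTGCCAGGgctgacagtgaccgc
MTA1 51-nt exon, chr14:105449359-105449409, plus strand: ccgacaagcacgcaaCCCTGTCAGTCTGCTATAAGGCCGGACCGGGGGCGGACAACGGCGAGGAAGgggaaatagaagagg
JADE2 129-nt exon, chr5:134576768-134576896, plus strand: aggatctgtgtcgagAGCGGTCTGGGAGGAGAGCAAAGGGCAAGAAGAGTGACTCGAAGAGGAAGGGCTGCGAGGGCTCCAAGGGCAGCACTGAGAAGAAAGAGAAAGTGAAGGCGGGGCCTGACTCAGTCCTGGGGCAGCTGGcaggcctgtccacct
SMARCA4 96-nt exon, chr19:11039458-11039553, plus strand: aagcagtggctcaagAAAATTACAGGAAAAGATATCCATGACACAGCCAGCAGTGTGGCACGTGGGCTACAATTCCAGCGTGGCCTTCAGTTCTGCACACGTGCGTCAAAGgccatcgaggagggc

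All 4 exons are annotated as coding and have lengths that are multiples of 3, so that skipping them keeps the reading frame. Of the 14 events, 10 had such a length, and 8 of the 10 tested for inclusion did, against 56.1% of all 2695 tested events. The HDAC7 exon was 70.3% G and C and the MTA1 exon 66.7%, above 91.7% and 87.8% of the tested events with a sequence, whose median was 51.0%. The JADE2 129-nt exon was at 60.5% and the SMARCA4 96-nt exon, at 50.0%, lay near that median. Exons of the same genes with no call were as rich in G and C, at 68.3% and 67.9% for the SIRT6 183-nt and 81-nt exons and 67.7% for the SMARCA4 99-nt exon. GENCODE holds 5 transcripts with the HDAC7 exon and 3 that skip it, 7 and 2 for MTA1, 2 and 1 for JADE2, and 7 and 20 for SMARCA4.

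The first comparison asked how inclusion differed between TIP60 and control siRNA. Averaged over the 3 lines, the HDAC7 111-nt exon and the MTA1 51-nt exon were included less after TIP60 siRNA, by 0.36 and 0.345. The JADE2 129-nt exon followed, by 0.125, in its event with the nearer acceptor of the next exon. That event passed the limma test only when replicates with the same number were paired. The event of this exon with the farther acceptor passed neither way. The SMARCA4 96-nt exon passed only in a paired fit too, in the opposite direction, and remained a rare form. Differences were tested with limma over all 2695 events that had at least 10 reads specific to one form in each library, and called at a Benjamini-Hochberg adjusted p under 0.05. On the average over lines, 2.15% of tested events were called, 1.89% as lower with TIP60 siRNA; with the replicate number as a block, 4.27% were, 3.75% as lower.

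**Figure D1:**
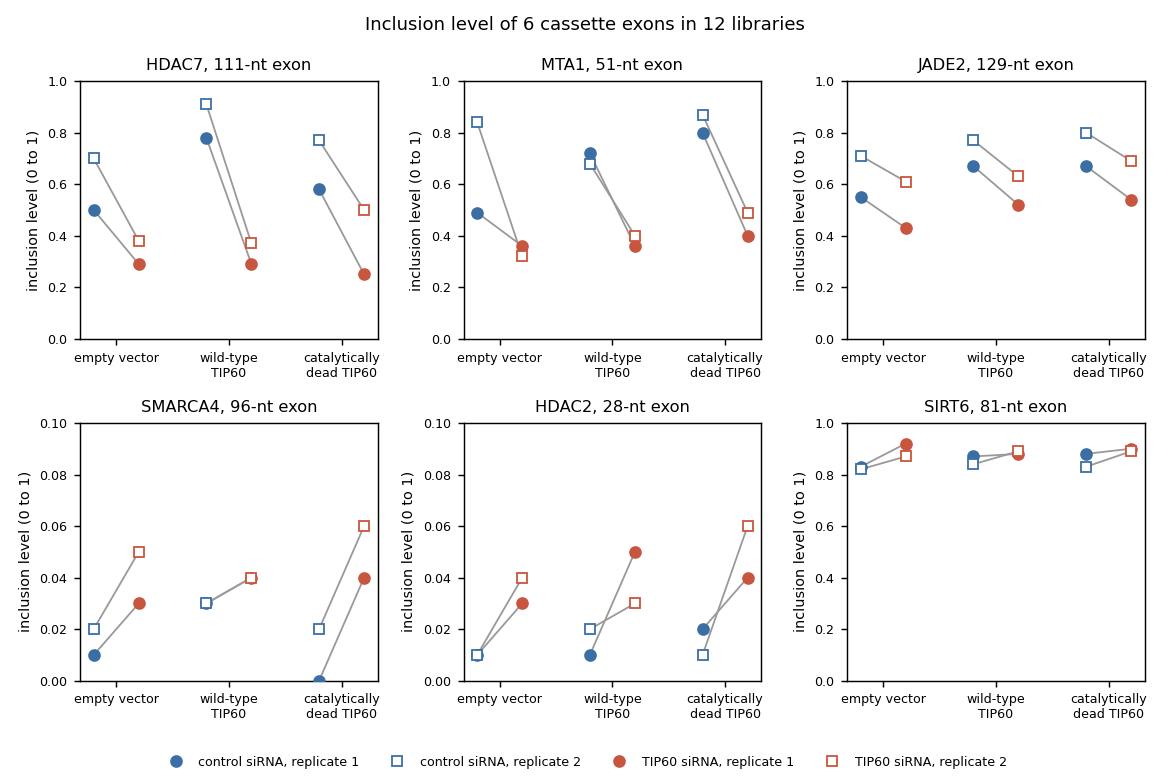
Inclusion level (y axis, 0 to 1; 0 to 0.1 for SMARCA4 and HDAC2) of 6 exons in every library, by line (x axis), siRNA (colour) and replicate number (marker), with lines joining same-number libraries. JADE2 is shown only in its event with the nearer acceptor. All joining lines slope down for HDAC7, MTA1 and JADE2 and up for the other 3 exons. The JADE2 values of replicate 2 lie above those of replicate 1 in each group.

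For the HDAC7 111-nt exon (gene ENSG00000061273.17), inclusion with control siRNA was 0.50 and 0.70 in the empty-vector line, 0.78 and 0.91 in the wild-type TIP60 line, and 0.58 and 0.77 in the catalytically dead line, for replicates 1 and 2. With TIP60 siRNA the values were 0.29 and 0.38, 0.29 and 0.37, and 0.25 and 0.50. The groups met only at 0.50, shared by a replicate 1 control library and a replicate 2 siRNA library, and within each replicate number they did not overlap. The average difference was -0.36 ± 0.064 (SE, limma adjusted p = 0.0438), and inclusion was lower in 6 of 6 same-number pairs, by 0.21 to 0.54. The block gave an adjusted p of 0.00254. Without a block, leaving out any one of the 12 libraries ended the call (limma adjusted p = 0.0581 to 0.123), whereas with the block all 12 such fits kept it (0.00592 to 0.0217).

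Reads specific to each form moved in opposite directions for HDAC7. Reads with the exon averaged 26.6 ± 8.04 RPM with control siRNA (SD, n = 6) and 9.81 ± 4.02 RPM with TIP60 siRNA, and reads without it averaged 2.89 ± 2.72 and 5.48 ± 2.96 RPM. In same-number pairs the exon-containing form was at 0.250 to 0.613 times its control level. The skipping form was at 1.04 to 3.63 times its control level in the 5 pairs where the control had such reads; in the wild-type TIP60 line, replicate 2 had 0 of them with control siRNA and 4 with TIP60 siRNA. These rest on few reads, between 0 and 22 per library for the skipping form. The lowest ratio, 1.04, came from 3 skipping reads with either siRNA in replicate 2 of the empty-vector line. There only the library totals differed.

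The MTA1 51-nt exon (ENSG00000182979.17) had control inclusion of 0.49 and 0.84 in the empty-vector line, 0.72 and 0.68 in the wild-type TIP60 line, and 0.80 and 0.87 in the catalytically dead line. After TIP60 siRNA it was 0.36 and 0.32, 0.36 and 0.40, and 0.40 and 0.49. Replicate 1 of the empty-vector control stood well below the other control libraries and level with the highest siRNA library, and within each replicate number the groups did not overlap. The average difference was -0.345 ± 0.058 (SE, limma adjusted p = 0.0366; 0.0256 with the block), with lower inclusion in 6 of 6 pairs, by 0.13 to 0.52. The call was kept in 2 of 12 fits that left out 1 library, those without either empty-vector control (limma adjusted p = 0.00231 and 0.0106; the other 10 up to 0.120). With the block it was kept in 3 of 12, the same ones and that without replicate 1 of the empty-vector line with TIP60 siRNA (limma adjusted p up to 0.0895 in the rest).

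MTA1 showed the same opposite movement of its forms as HDAC7. Its exon-containing reads averaged 36.0 ± 18.1 RPM with control and 16.0 ± 7.34 RPM with TIP60 siRNA (SD, n = 6), at 0.346 to 0.611 times the control level within pairs. Its skipping reads averaged 4.40 ± 2.43 and 9.56 ± 2.57 RPM, at 1.08 to 4.84 times the control level, higher in 6 of 6 pairs. The ratio of 1.08 came from 11 skipping reads with either siRNA in replicate 1 of the empty-vector line, where only the library totals differed. In RPM, reads with the exon were lower and reads without it higher in all 6 pairs in 1.30% of tested events. Among the 10 tested events of the 6 genes, this held for HDAC7 and MTA1 alone.

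**Figure D2:**
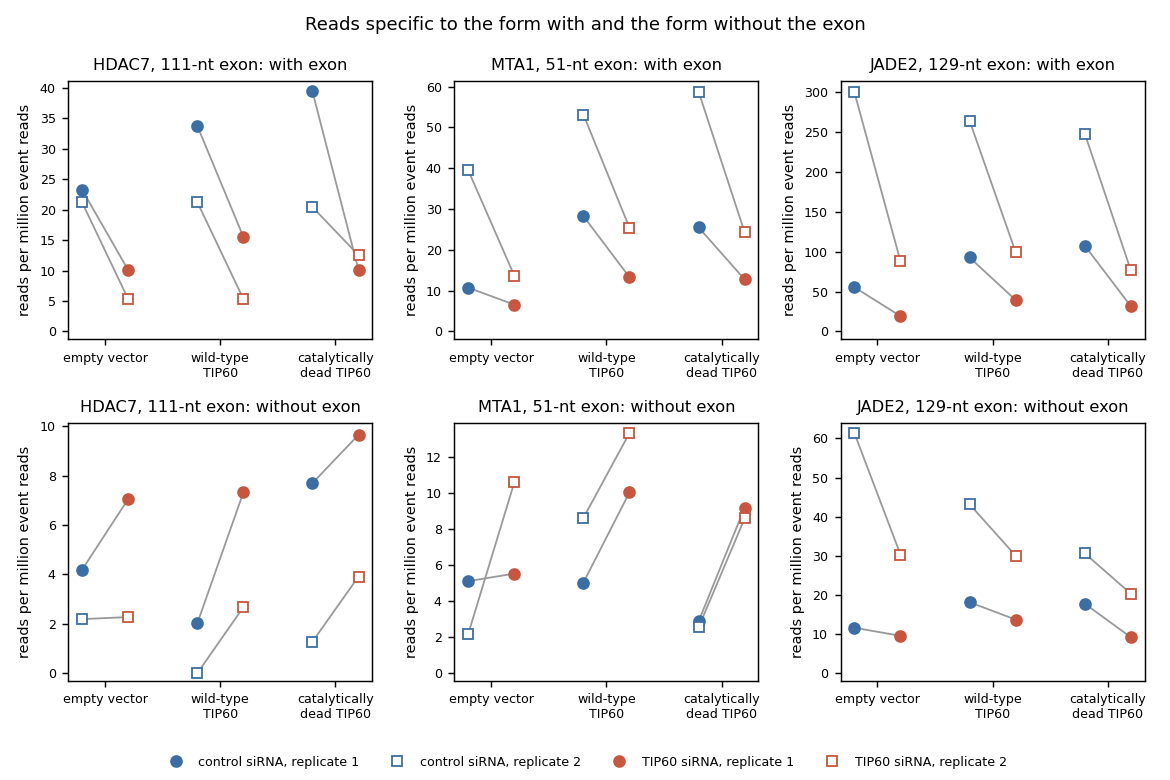
Reads specific to the form with the exon (upper row) and without it (lower row), in RPM, for HDAC7, MTA1 and JADE2 in every library; colours and markers show siRNA and replicate number, and lines join same-number libraries. Skipping reads in RPM go up with TIP60 siRNA in every pair for HDAC7 and MTA1. They go down in every pair for JADE2, shown with the nearer acceptor. In the empty-vector line, the read counts themselves were equal for HDAC7 in replicate 2 (3 each) and MTA1 in replicate 1 (11 each).

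The JADE2 129-nt exon (ENSG00000043143.20) was listed in 2 events that differ only in the exon after it. The acceptors of that exon lie 3 bases apart, and its listed end is 134579814 with the nearer and 134583230 with the farther acceptor, so the second event covers a longer exon. How reads were assigned between the 2 events was not examined. The first 3 lower-case bases after the exon printed above belong to the nearer acceptor alone. With the nearer acceptor, control inclusion was 0.55 and 0.71 in the empty-vector line, 0.67 and 0.77 in the wild-type TIP60 line, and 0.67 and 0.80 in the catalytically dead line. With TIP60 siRNA it was 0.43 and 0.61, 0.52 and 0.63, and 0.54 and 0.69. The siRNA groups overlapped over all libraries but not within either replicate number, and the 6 pair differences spanned only -0.15 to -0.10. The average difference of -0.125 ± 0.053 (SE) did not pass without a block (limma adjusted p = 0.414) and passed with it (0.00727), in 12 of 12 fits that left out a library with the block (0.0109 to 0.0397). A quasi-binomial model of the form-specific reads called it without a block (adjusted p = 0.0156, with 3.04% of tested events called) and with it (0.000856, with 13.8% called).

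Inclusion below the controls without overlap in both replicate sets was seen in 4.71% of tested events, and among the genes described here in HDAC7, MTA1 and JADE2 with the nearer acceptor. With the farther acceptor, JADE2 inclusion ran from 0.48 to 0.89 with control and from 0.50 to 0.80 with TIP60 siRNA, and was lower in 5 of 6 pairs. Its average difference of -0.08 ± 0.086 (SE) was not called with or without the block (limma adjusted p = 0.925 and 0.459). The exception was replicate 1 of the empty-vector line, at 0.48 with control and 0.63 with TIP60 siRNA, the latter from 38 reads with and 4 without the exon.

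Both JADE2 forms had fewer reads, unlike in HDAC7 and MTA1. For the nearer acceptor, exon-containing reads averaged 178 ± 104 RPM with control and 59.0 ± 33.2 RPM with TIP60 siRNA (SD, n = 6), at 0.293 to 0.424 times the control level within pairs. Skipping reads averaged 30.5 ± 18.9 and 18.9 ± 9.64 RPM, at 0.494 to 0.822 times the control level. The JADE2 118-nt exon (chr5:134573645-134573762), which lies directly upstream of the 129-nt exon in the transcript, was almost always included, at 0.95 to 0.99 with control and 0.89 to 0.96 with TIP60 siRNA. Only 9 reads in all 12 libraries skipped it, 6 with control siRNA beside 1178 with the exon, and 3 with TIP60 siRNA beside 444. The average difference at this exon, -0.05 ± 0.016 (SE), thus rested on few skipping reads. It was not called (limma adjusted p = 0.294, and 0.199 with the block).

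**Figure D3:**
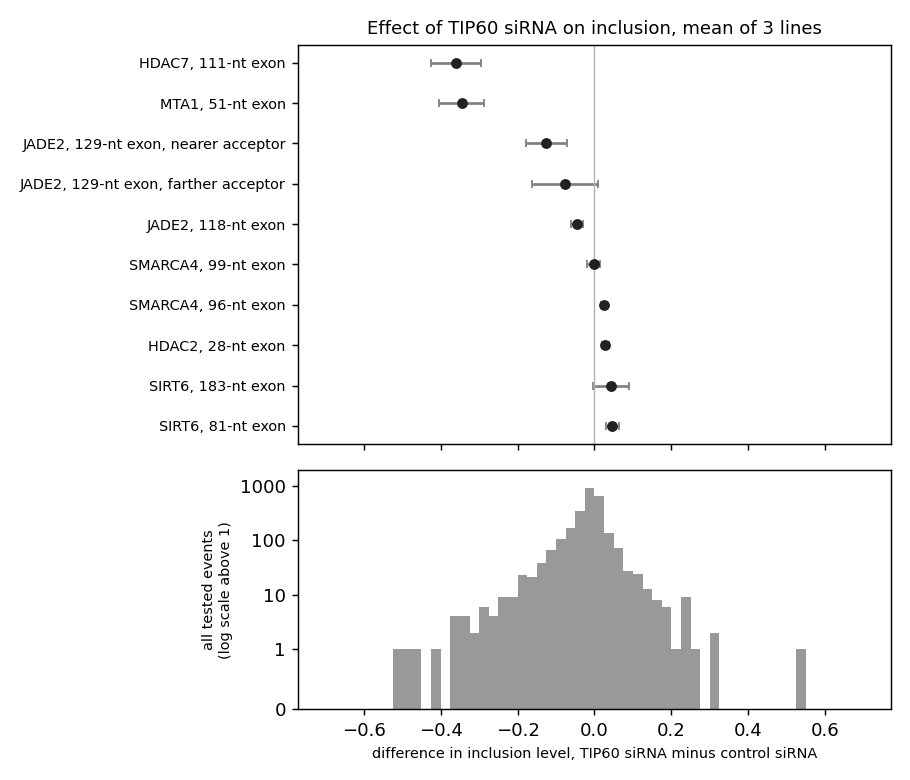
Upper panel, average difference in inclusion between TIP60 and control siRNA over 3 lines (x axis) with its SE for the 10 tested events of the 6 genes. Lower panel, the number of all 2695 tested events by the same difference, on an axis that is logarithmic above 1; HDAC7 and MTA1 lie in its lower tail, at ranks 7 and 10 from the lowest.

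SMARCA4 (ENSG00000127616.18) was read mostly without its alternative exons. The 96-nt exon had inclusion of 0.01 and 0.02, 0.03 and 0.03, and 0.00 and 0.02 with control siRNA in the empty-vector, wild-type TIP60 and catalytically dead lines, and 0.03 and 0.05, 0.04 and 0.04, and 0.04 and 0.06 with TIP60 siRNA. It was higher in 6 of 6 pairs by 0.01 to 0.04, with the smallest difference in the wild-type TIP60 line. The average difference of 0.025 ± 0.0069 (SE) was not called without a block (limma adjusted p = 0.165) and was called with it (0.0491), though in none of the 12 paired fits that left out a library (0.0744 to 0.142). Reads with the exon numbered 62 over the control and 117 over the TIP60 siRNA libraries, beside 1542 and 1309 without it. Replicate set 2 gave 152 of these 179 reads, and reads without the exon were 616 in set 1 and 2235 in set 2.

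The SMARCA4 99-nt exon (chr19:11033767-11033865) had inclusion of 0.00 to 0.06 with control and 0.01 to 0.06 with TIP60 siRNA, and an average difference of -0.0017 ± 0.017 (SE, limma adjusted p = 1; 0.937 with the block). All 70 reads with this exon came from replicate set 2, with 0 in each library of set 1, although reads without it were 583 in set 1 and 571 in set 2. The 76-nt SMARCA4 exon (chr19:10980777-10980852), which GENCODE places in an untranslated region, had 0 reads with it in set 1 and 77 in set 2, beside 146 and 1017 without it. It had too few form-specific reads in at least 1 library for the inclusion test, and its inclusion lay between 0.02 and 0.07.

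HDAC2 (ENSG00000196591.11) had 1 event, a 28-nt untranslated exon at chr6:113962367-113962394. Inclusion was 0.01 to 0.02 with control and 0.03 to 0.06 with TIP60 siRNA, so that the groups did not overlap and 6 of 6 pairs were higher, by 0.01 to 0.05. Of all tested events 2.34% were higher in 6 of 6 pairs, and the share without overlap in this direction was not counted. The difference rested on 1 read with the exon over the 6 control libraries and 18 over the 6 siRNA libraries, beside 429 and 384 without it. At 0.028 ± 0.0096 (SE) it was not called by limma (adjusted p = 0.261, and 0.125 with the block), and a quasi-binomial model of the reads called it with the block (adjusted p = 0.0152, with 13.8% of tested events called) and without (0.0422, with 3.04% called).

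SIRT6 (ENSG00000077463.14) was read with both of its exons. The 81-nt exon (chr19:4175680-4175760) had 258 reads with and 0 without it, and the 183-nt exon (chr19:4179104-4179286) 375 with and 1 without. Inclusion of the 81-nt exon was 0.82 to 0.88 with control and 0.87 to 0.92 with TIP60 siRNA, higher in 6 of 6 pairs, on 10 to 20 reads with the exon in control libraries and 19 to 33 in siRNA libraries. With no skipping read in any library, this estimate can move only with the number of reads. Neither exon was called (limma adjusted p = 0.264 and 0.914, and 0.110 and 0.518 with the block).

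Of the 10 tested events, 3 were lower in all 6 same-number pairs, where 9.46% of all tested events were. Leaving aside the SIRT6 81-nt exon, which had no skipping read, 2 were higher in all 6, where 2.34% of all tested events were. The median average difference of the 10 was -0.023 against -0.0067 over all events, with 6 below and 4 above 0. The remaining 4 events were not tested for inclusion. The HDAC7 51-nt exon (chr12:47802224-47802274) had at least 7 form-specific reads per library; inclusion ran from 0.46 to 0.72 with control and from 0.46 to 0.87 with TIP60 siRNA, lower in 3 and higher in 3 pairs. The HDAC7 107-nt exon (chr12:47784695-47784801), listed in 11 libraries, had 0 reads with the exon and 93 without, and the MTA1 36-nt exon (chr14:105466707-105466742), listed in 9, had 516 with and 0 without. The fourth was the SMARCA4 76-nt exon.

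The second comparison took each line separately, to ask whether the TIP60 construct altered the response to the siRNA. HDAC7 inclusion differed by -0.27 ± 0.11 in the empty-vector, -0.52 ± 0.11 in the wild-type TIP60 and -0.30 ± 0.11 in the catalytically dead line (SE). Only the wild-type TIP60 line passed, and only with the block (limma adjusted p = 0.0210, and 0.116 and 0.0608 in the other two), where 0.148% of tested events were called. That call was kept in 4 of 12 paired fits without a library, those without either empty-vector control or either TIP60 siRNA library of the catalytically dead line (limma adjusted p = 0.0291 to 0.206 over the 12). MTA1 differed by -0.33, -0.32 and -0.39 (SE 0.10 each) and passed in no line with either fit. Its empty-vector value rested on single libraries: it was -0.50 without replicate 1 of the control, which was called (limma adjusted p = 0.0333, and 0.0207 with the block), and -0.15 without replicate 2. The catalytically dead line was called without a block when either empty-vector control was left out (limma adjusted p = 0.0432 each). JADE2 with the nearer acceptor differed by -0.11, -0.145 and -0.12 (SE 0.093 each) and passed in no line by limma. A quasi-binomial model of form-specific reads with the block called this JADE2 event in each line (adjusted p = 0.0246, 0.0230 and 0.0188 in the same order). It called 2.37%, 0.891% and 3.08% of tested events there. That model also called HDAC7 in the wild-type TIP60 and catalytically dead lines (adjusted p = 0.0447 and 0.0237) and not in the empty-vector line (0.0703), and MTA1 in none. The share of all events called in a single line without a block was 0.0371% in the empty-vector line, 0% in the wild-type TIP60 line (116 events at an unadjusted p under 0.05, and 0 by the quasi-binomial model) and 0.0371% in the catalytically dead line.

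The difference between lines was not called for any of the 10 events. Its limma adjusted p was 1 for each of HDAC7, MTA1 and JADE2, and 0.999 for HDAC7 with the block, where the unadjusted p was 0.015. Over all events, 0% passed this test, with 34 events at an unadjusted p under 0.05 and 0 by the quasi-binomial model. The exons therefore cannot be said to respond more in one line than in another from these libraries.

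Comparing the lines over both siRNAs, the third comparison, gave no call among the 10 events either. Inclusion in the catalytically dead line was above the empty-vector line by 0.138 ± 0.071 for MTA1 and by 0.10 ± 0.065 for JADE2 with the nearer acceptor (SE, limma adjusted p = 1 each). HDAC7 was 0.12 ± 0.079 above it in the wild-type TIP60 line (SE, limma adjusted p = 1). Over all events 0% were called for either construct, with 59 at an unadjusted p under 0.05 for wild-type and 48 for catalytically dead TIP60, and 0 for each by the quasi-binomial model.

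Event reads gave a second readout, the reads fitting either form of an event. They were not independent of inclusion, since the forms gave unequal numbers of form-specific reads. At an HDAC7 111-nt inclusion of 0.50, replicate 1 of the empty-vector control had 50 such reads with the exon and 9 without. How far the inclusion differences entered the event reads of HDAC7 and MTA1 was not tested. In bulk samples, fewer cells with the transcript and less RNA per cell cannot be told apart. JADE2 had fewer event reads with TIP60 siRNA in every pair, and this passed the test with the block in all 3 of its events. HDAC7 at the 111-nt exon was lower and SIRT6 at the 81-nt exon higher, also only with the block. Limma on log2(RPM + 0.5), over 4992 events with reads in all 12 libraries, called 0.741% of events on the average over lines, 0.401% as lower; with the block it called 16.8%, 10.7% as lower. Of the 12 events of the 6 genes in this test, none was called without the block.

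**Figure D4:**
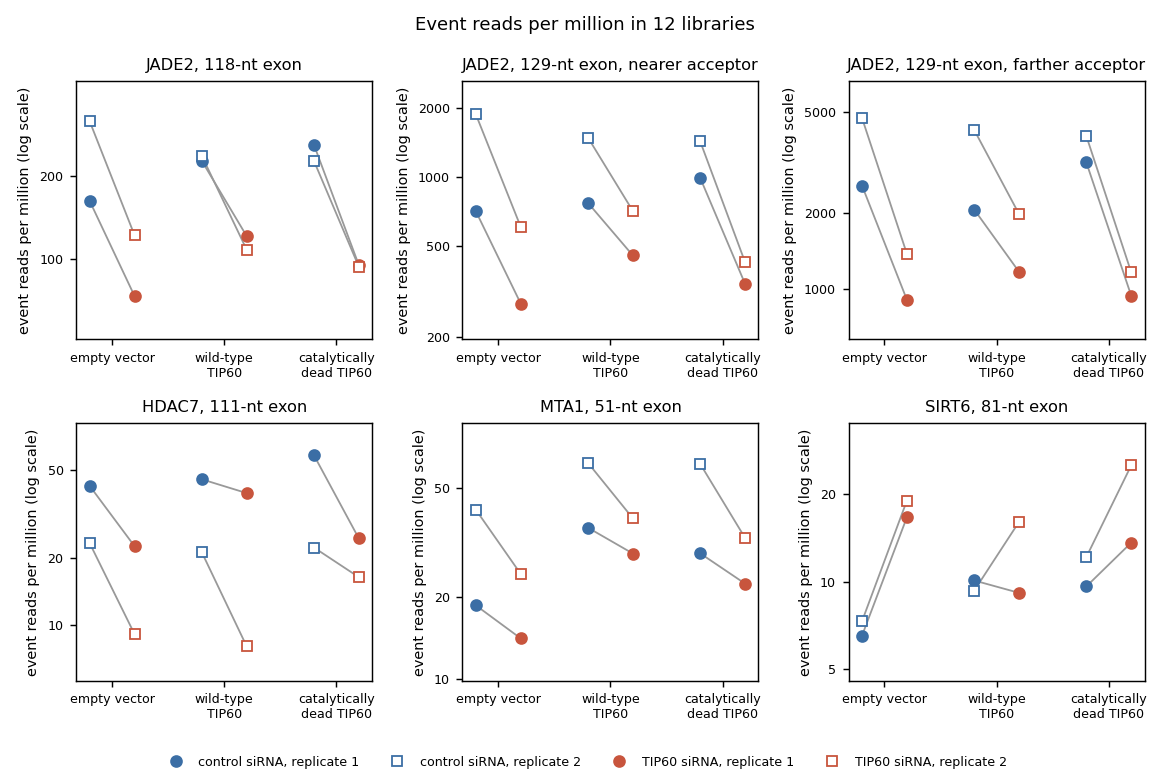
Event reads in RPM (y axis, log scale) of 6 events in every library, by line, siRNA (colour) and replicate number (marker), with lines joining same-number libraries. JADE2, HDAC7 and MTA1 are lower with TIP60 siRNA in 6 of 6 pairs each, and SIRT6 is higher in 5 of 6.

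For the JADE2 129-nt exon with the farther acceptor, control libraries had 2560 and 4737 RPM in the empty-vector line, 2059 and 4251 RPM in the wild-type TIP60 line, and 3162 and 4023 RPM in the catalytically dead line. With TIP60 siRNA they had 906 and 1377, 1168 and 1977, and 941 and 1164 RPM. All 6 siRNA libraries lay below all 6 control libraries. Event reads were lower in 6 of 6 same-number pairs in 18.7% of all events, and the share without overlap was not counted. The average difference was -1.46 ± 0.27 in log2(RPM + 0.5) (SE, limma adjusted p = 0.0557, and 0.000117 with the block), and pair ratios were 0.289 to 0.567.

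The other JADE2 events share exons and reads with this one and are not independent of it. With the nearer acceptor the lowest, median and highest levels were 708, 1213 and 1883 RPM with control and 279, 439 and 709.9 RPM with TIP60 siRNA, overlapping by 1 library, and the average difference was -1.35 ± 0.33 (log2, SE, limma adjusted p = 0.127, and 0.000561 with the block). At the 118-nt exon they were 162, 232 and 316 RPM against 73.5, 102 and 122 RPM, without overlap. How common such separation is among all events was not counted. The difference at the 118-nt exon was -1.21 ± 0.23 (log2, SE, limma adjusted p = 0.0638, and 0.00241 with the block). In all 3 events the blocked call was kept in 12 of 12 fits without a library. The median of all events was -0.10 on this scale; with median-of-ratios scaling, which put that median near 0, JADE2 was still lower in all 3.

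By line, JADE2 event reads with the farther acceptor differed by -1.64 in the empty-vector line and -1.77 in the catalytically dead line and passed with the block (limma adjusted p = 0.00569 and 0.00302), and by -0.96 in the wild-type TIP60 line, where they did not (0.162; SE 0.19 each, log2). With the nearer acceptor the same 2 lines passed (-1.49 and -1.65, limma adjusted p = 0.0173 and 0.0175), and the wild-type TIP60 line did not (-0.92, 0.279). At the 118-nt exon no line passed (limma adjusted p = 0.0615, 0.339 and 0.0524 in the empty-vector, wild-type TIP60 and catalytically dead lines). Without 1 library, the paired calls with the farther acceptor were kept in 12 of 12 fits in the empty-vector and 10 of 12 in the catalytically dead line, and with the nearer acceptor in 10 and 9 of 12. With the block, 3.08%, 2.84% and 0.0200% of all events were called in the empty-vector, catalytically dead and wild-type TIP60 lines. The difference between lines was not called (limma adjusted p = 1 for each JADE2 event, unadjusted 0.032 for the farther acceptor), nor for any other event (0%).

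At the HDAC7 111-nt exon, event reads were 21.3, 32.9 and 58.2 RPM with control and 8.01, 19.5 and 39.3 RPM with TIP60 siRNA (lowest, median and highest of 6), lower in 6 of 6 pairs. The average difference of -0.90 ± 0.52 (log2, SE) passed with the block (limma adjusted p = 0.0303) and not without (0.651), and in 5 of 12 paired fits without a library. At the HDAC7 51-nt exon the difference was -0.87 ± 0.39, lower in 6 of 6 pairs and not called (limma adjusted p = 0.476, and 0.0678 with the block). MTA1 at the 51-nt exon, also lower in 6 of 6 pairs, was at -0.56 ± 0.36 and not called (limma adjusted p = 0.721, and 0.0626 with the block).

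SIRT6 went the other way. Event reads at its 81-nt exon were 6.52 and 7.31 RPM in the empty-vector, 10.1 and 9.30 RPM in the wild-type TIP60 and 9.62 and 12.1 RPM in the catalytically dead line with control siRNA, and 16.6 and 19.0, 9.14 and 16.0, and 13.6 and 25.0 RPM with TIP60 siRNA. They were higher in 5 of 6 pairs, replicate 1 of the wild-type TIP60 line being the exception, on 10 to 33 reads per library. The average difference of 0.79 ± 0.35 (log2, SE) passed with the block (limma adjusted p = 0.0477) and not without (0.466), and in 2 of 12 paired fits without a library. At the 183-nt exon it was 0.60 ± 0.29, higher in 6 of 6 pairs and not called (limma adjusted p = 0.546, and 0.0832 with the block).

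SMARCA4 and HDAC2 event reads were not called with either fit. The differences were -0.65, -0.25 and -0.19 (log2) at the SMARCA4 76-nt, 96-nt and 99-nt exons and -0.10 at HDAC2. In all, 7 of the 12 events were lower and 1 higher in 6 of 6 pairs, where 18.7% and 12.1% of all events were, and the 7 include 3 events of JADE2 and 2 of HDAC7. The median of the 12 was -0.60 against -0.10 over all events. Like the inclusion counts, these describe genes chosen with earlier results of these data known.

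The exons with the most similar pattern over the 12 libraries were listed after each replicate set was centred on its own mean. These are descriptions, since the siRNA and the reads' depth are common to all of them. For MTA1 the highest Pearson correlations were with exons of NUMB (its 294-nt exon, 0.951), MFGE8 (0.947) and MYL6 (0.930), and among the lowest were those with ADD3 (-0.918) and SPTAN1 (-0.898). For JADE2 with the nearer acceptor they were RHBDD2 (0.946), PDLIM4 (0.905) and the same NUMB exon (0.888) at the top, and RNF14 (-0.930), ABCB8 (-0.894) and C8orf59 (-0.889) at the bottom. With the farther acceptor the order was another, led by CAMKK2 (0.863), ATP6V0D1 (0.833) and RAB35 (0.825), with BCL2L12 (-0.849) and a different, 144-nt exon of NUMB (-0.825) at the bottom. Among the genes described here, HDAC7 correlated with MTA1 at 0.849. With JADE2, HDAC7 correlated at 0.867 for the nearer acceptor, 0.660 for the farther and 0.659 for the 118-nt exon, and MTA1 at 0.880, 0.620 and 0.668. The nearer and farther acceptor events of JADE2 correlated at 0.535. Negative correlations were also found, such as MTA1 with SMARCA4 96-nt (-0.762) and HDAC7 with HDAC2 (-0.718).

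Other chromatin regulators were read from a list of 148 genes. Of these, 17 had 25 events tested for inclusion, of which 1 was called as lower and 0 as higher on the average over lines, or 2 and 0 with the block. The share of all tested events called was 2.15% and 4.27%, so these counts are close to the background. The called exon was a 192-nt coding exon of SIRT3, a mitochondrial sirtuin deacetylase, at chr11:233343-233534. Its inclusion was 0.92, 0.955 and 0.98 with control and 0.49, 0.69 and 0.95 with TIP60 siRNA (lowest, median and highest of 6), lower in 5 of 6 pairs, with an average difference of -0.25 ± 0.045 (SE, limma adjusted p = 0.0438, and 0.0288 with the block). By line the SIRT3 difference was -0.37 in the empty-vector, -0.095 in the wild-type TIP60 and -0.29 in the catalytically dead line, and no line passed with either fit. A 176-nt coding exon of PRMT2, an arginine methyltransferase, at chr21:46658745-46658920, was at 0.68, 0.845 and 0.92 against 0.32, 0.46 and 0.70, lower in 6 of 6 pairs by -0.32 ± 0.078 on average, and was called with the block alone (limma adjusted p = 0.126 without and 0.0498 with it). Event reads of 47 listed genes, in 66 events, gave no call without the block and 5 lower and 3 higher with it, where 16.8% of all events were called.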

How the data were processed

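RNA was sequenced from stranded mRNA libraries and aligned with STAR to hg38, per the submitters' processing notes (STAR version: not given in the sources used here). Per the file headers, the authors deposited for each library and event the MISO posterior mean inclusion as a fraction with its interval, and read counts by class (with the exon, without it, both, neither). Reads fitting neither form were left out of RPM; they were 50.1% to 53.2% of reads in replicate set 1 and 64.5% to 65.7% in set 2. Inclusion (at least 10 form-specific reads in each library) and log2(RPM + 0.5) were fitted with limma 3.58.1 in R 4.3.3 (6 groups, mean-variance trend, robust), adjusted over all events. The fits were also run on simulated data without a difference between replicate sets, which cannot check how the sets were handled. Same-numbered samples deviated together in all 15 pairs of groups (correlation 0.706 to 0.779 for inclusion, 0.583 to 0.896 for reads), so the fit with the replicate block is given where it changes a call. The genes and lists were chosen with earlier results of these data known. Named list genes had an unadjusted p under 0.01; similar exons were the 3 highest and 3 lowest, some of which are not reported here. Alternatives were the block, read minimum, log2 odds, quasi-binomial model, pseudocount, median-of-ratios scaling and leaving out each library; the block together with a left-out library was added after seeing the data.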

Additional observations from a re-analysis of the deposited data

How the results depend on the processing

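Counts of called events depended on the replicate block. For inclusion, calls went from 1 to 4 (empty vector), 0 to 4 (wild-type TIP60), 1 to 10 (catalytically dead) and 58 to 115 (average) with the block, and to 64, 24, 83 and 373 with a quasi-binomial model and block, which also called 2 events for each construct against the vector. Without a block that model called 2 and 3 in the empty-vector and catalytically dead lines. With no read minimum, calls were 0 in the empty-vector line and 30 on average; with log2 odds 0 in the empty-vector and 0 in the catalytically dead line; with at least 20 reads 2 in the latter. For event reads the block took calls from 0 to 154, 0 to 1, 0 to 142 and 37 to 837, and to 1 for each construct; the average gave 86 with at least 20 reads and 16 with median-of-ratios scaling. Leaving out 1 library gave 0 to 7, 0 to 2, 0 to 8 and 7 to 34 inclusion calls in the same order, 0 to 1 for wild-type TIP60 against the vector, and 0 to 11 for average reads. HDAC7 and MTA1 lost their average call with no read minimum (limma adjusted p = 0.0603 and 0.0512) and with log2 odds (0.0548 and 0.0517); the cause was not tested. With at least 20 event reads, JADE2 reads passed without a block at the farther acceptor and the 118-nt exon (limma adjusted p = 0.0335 and 0.0359). Signs turned in these uncalled values, among others: JADE2 inclusion with the farther acceptor in the empty-vector line (0.015 by limma, log odds -0.46 by the quasi-binomial model with the block), HDAC7 111-nt inclusion in the catalytically dead against the empty-vector line (0.058, log odds -0.051), wild-type TIP60 against the vector for JADE2 118-nt (0.010, log odds -0.25) and the farther acceptor (0.048, log odds -0.033), HDAC2 average reads (0.0067 with median-of-ratios scaling; -0.30 to 0.091 without 1 library, -0.25 to 0.046 with the block), SMARCA4 99-nt inclusion (-0.012 to 0.0083; with the block -0.0073 to 0.0040, above 0 also at 0.0027 and 0.00067), SMARCA4 96-nt average reads (-0.56 to 0.071), HDAC7 111-nt reads (-1.89 to 0.33) and SIRT6 81-nt reads (-0.079 to 0.70) in the wild-type TIP60 line, and SMARCA4 76-nt reads (average -1.34 to 0.047, empty vector -2.77 to 1.39, wild-type -1.68 to 1.09, catalytically dead -2.19 to 0.29; with the block -1.45 to 0.072 in the empty-vector and -0.65 to 0.064 in the wild-type line). An unpaired fit without 1 library compares groups that hold replicates 1 and 2 in different proportions. Few form-specific reads limit all 6 genes: per library the rarer form had at most 22 reads for HDAC7 111-nt and MTA1 51-nt, 28 for JADE2 with the farther acceptor, 36 for SMARCA4 96-nt and 5 for HDAC2.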
